A study of Mus musculus with 12 samples.

Results

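The regions described here are those of the BRD3 chromatin immunoprecipitation lists of untreated cells and of cells given the cytokine RANKL. The untreated list held 3668 regions and the RANKL list 3840, which is 7508 of the 16188 regions in the 8 lists of the study. Regions of the 2 lists were paired by position on mouse build mm10, and a region was called shared when it overlapped a region of the other list by at least 1 bp. By this rule 2766 regions of each list were shared, 902 were found in the untreated list only and 1074 in the RANKL list only.

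The cells were RAW264.7, a mouse macrophage line that the labels describe as monocyte-derived, with bone marrow as the source. They received no treatment or RANKL at 50 ng/ml for 4 h, were fixed for 15 min in 1% formaldehyde, and were sequenced as single-end reads of 50 bp. Other libraries of the study used the bromodomain inhibitor I-BET at 500 nM for 4 h, alone or with RANKL, and an antibody to BRD2. Each antibody and treatment is 1 library, so no difference below has a replicate check or a test. Intervals are exact (Clopper-Pearson) 95% intervals of a share and cover counting error only. The lists give no read counts, so the depth behind a region is unknown, and its part in whether a region was listed was not tested. In bulk chromatin, fewer bound cells and less binding per cell cannot be told apart.

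BRD3 belongs to the BET family, whose paired bromodomains bind acetylated lysines of histones at active promoters and enhancers, and whose members help to release paused RNA polymerase II. RANKL binds its receptor RANK on monocytes and macrophages and signals through TRAF adaptors, NF-kB and AP-1 towards NFATc1, the factor that drives osteoclast formation. In the macrophage lineage PU.1 and C/EBP factors keep enhancers of lineage genes open, and RANKL acts on cells that already carry this programme. Of 10 macrophage marker genes, 5 had a BRD3 region within 1 kb of either end in the untreated list (Spi1, Csf1r, Cd68, Msr1 and Cx3cr1) and 7 in the RANKL list (these and Cd14 and Lyz2), while Itgam, Adgre1 and Ptprc had none. The untreated region counted for Cd68 lay outside the gene and held a listed start of another gene. Of 9 osteoclast markers 1, Ctsk, had a region, in the RANKL list. No marker of T cells, B cells or erythroid cells and none of 40 genes of other lineages had one in either list.

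Promoter sequences are shown first as examples, chosen after their values were seen. Each is the 250 bases before the listed RefSeq start of assembly GRCm38.p6, 5' to 3' on the strand of the gene, and lies outside every gene record of the RefSeq table. In the first 5 the capitals mark the letters GCGCATGC, the core of the site of NRF1, a factor of housekeeping and mitochondrial genes, or its reverse complement. Hexim1 and Ran were overlapped by a region in both lists, and Sdhb, Atp6v1f and Mrpl39 in the RANKL list only. No promoter of the untreated list only is shown with these letters, which 39 of 668 such promoters hold. Hexim1 encodes an inhibitor of the elongation kinase P-TEFb, Ran a GTPase of nuclear transport, Sdhb a subunit of succinate dehydrogenase, Atp6v1f a subunit of the proton pump V-ATPase and Mrpl39 a mitochondrial ribosomal protein. The positions are Hexim1 chr11:103116075-103116324, plus strand; Ran chr5:129019906-129020155, plus strand; Sdhb chr4:140961021-140961270, plus strand; Atp6v1f chr6:29467533-29467782, plus strand; and Mrpl39 chr16:84735245-84735494, minus strand.
Hexim1: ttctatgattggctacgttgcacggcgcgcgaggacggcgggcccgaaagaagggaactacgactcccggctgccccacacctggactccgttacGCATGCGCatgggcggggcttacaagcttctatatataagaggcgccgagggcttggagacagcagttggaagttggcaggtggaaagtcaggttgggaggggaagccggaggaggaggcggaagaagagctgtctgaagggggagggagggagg
Ran: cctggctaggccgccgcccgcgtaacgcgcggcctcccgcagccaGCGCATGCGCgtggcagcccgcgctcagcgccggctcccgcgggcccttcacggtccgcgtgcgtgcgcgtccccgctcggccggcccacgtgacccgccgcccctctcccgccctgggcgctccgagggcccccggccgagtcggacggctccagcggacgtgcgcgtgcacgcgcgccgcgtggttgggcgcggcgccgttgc
Sdhb: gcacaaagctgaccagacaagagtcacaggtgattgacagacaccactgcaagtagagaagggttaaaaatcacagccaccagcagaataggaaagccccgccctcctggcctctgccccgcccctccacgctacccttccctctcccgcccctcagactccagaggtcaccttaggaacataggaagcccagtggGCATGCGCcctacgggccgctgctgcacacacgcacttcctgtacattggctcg
Atp6v1f: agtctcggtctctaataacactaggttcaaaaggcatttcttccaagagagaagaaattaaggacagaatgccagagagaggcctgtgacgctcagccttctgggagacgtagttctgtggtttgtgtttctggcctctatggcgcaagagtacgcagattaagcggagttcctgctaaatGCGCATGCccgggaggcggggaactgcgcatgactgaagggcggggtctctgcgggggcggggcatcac
Mrpl39: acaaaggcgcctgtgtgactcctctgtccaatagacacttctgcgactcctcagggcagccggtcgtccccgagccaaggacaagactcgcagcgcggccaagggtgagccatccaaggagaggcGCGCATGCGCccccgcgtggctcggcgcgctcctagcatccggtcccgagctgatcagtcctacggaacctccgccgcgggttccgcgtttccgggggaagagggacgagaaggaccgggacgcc

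The next 3 show signal-dependent and histone promoters. In Nfkbia (called in both lists), the gene of the NF-kB inhibitor IκBα, the capitals mark an NF-kB site with its first base at -28 from the start. The printed Nfkbia bases, with this site, lie under the untreated region only. The RANKL region (chr12:55491514-55492615) stops short of the listed start and meets the promoter only in bases after it. In Tnf (RANKL list only), the gene of the cytokine TNF, and H3c10 (untreated list only), a replication-dependent histone H3 gene, they mark the TATA letters TATAAA at -29 and -31. The positions are Nfkbia chr12:55492648-55492897, minus strand; Tnf chr17:35202008-35202257, minus strand; and H3c10 chr13:21717378-21717627, plus strand.
Nfkbia: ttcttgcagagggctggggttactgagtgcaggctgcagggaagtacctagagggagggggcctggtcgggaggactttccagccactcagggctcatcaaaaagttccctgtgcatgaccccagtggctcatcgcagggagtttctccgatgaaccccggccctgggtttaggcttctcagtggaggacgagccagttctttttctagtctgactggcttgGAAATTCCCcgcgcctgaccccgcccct
Tnf: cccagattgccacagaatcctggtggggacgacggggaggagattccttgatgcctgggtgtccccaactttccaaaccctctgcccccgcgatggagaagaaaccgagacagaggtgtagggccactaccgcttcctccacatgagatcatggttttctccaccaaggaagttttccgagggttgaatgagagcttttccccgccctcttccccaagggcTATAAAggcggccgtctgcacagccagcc
H3c10: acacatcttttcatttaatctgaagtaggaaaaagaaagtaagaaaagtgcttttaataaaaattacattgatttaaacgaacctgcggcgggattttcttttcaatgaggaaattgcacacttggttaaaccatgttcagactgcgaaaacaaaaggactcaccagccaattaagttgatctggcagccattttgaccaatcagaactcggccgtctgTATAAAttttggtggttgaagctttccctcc

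Most BRD3 regions of untreated cells were still called after 4 h of RANKL, and the shared regions held most of the covered length in both lists. Shared regions were 75.4% of the untreated list (95% interval 74.0% to 76.8%) and 72.0% of the RANKL list (70.6% to 73.4%). They covered 2699 kb of the untreated list and 2685 kb of the RANKL list, while regions of the untreated list only covered 864 kb and those of the RANKL list only 1020 kb. Median widths were close, at 698 bp and 681 bp for shared regions, 766 bp in the untreated list only and 669 bp in the RANKL list only. The widest of the regions differed more: the RANKL list only held 28 regions over 3 kb, up to 7039 bp, and the untreated list only 13, up to 4258 bp.

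Few unshared regions missed the overlap rule by a short distance. Of the 902 regions in the untreated list only, 2 lay within 1 kb of a RANKL region, and of the 1074 in the RANKL list only, 3 lay within 1 kb of an untreated region. Within 20 kb the shares were 17.1% and 19.1%, and within 50 kb 33.1% and 36.9%. Each region joins peaks of 3 peak sets that number their peaks along the genome, so peaks that were called and not listed leave gaps in the numbers. For 430 of 891 flanked regions in the untreated list only (48.3%, 44.9% to 51.6%), at least 1 RANKL set had no unlisted peak number between the neighbouring regions. The same held in at least 1 untreated set for 380 of 1064 flanked regions in the RANKL list only (35.7%, 32.8% to 38.7%). In all 3 sets at once it held for 79 of the 891 and 45 of the 1064. For the rest, at least 1 set of the other list left room for a peak that was not listed. For 461 and 684 regions every set left such room. Whether a peak lay there was not tested.

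The RANKL-only regions lay away from gene starts more often than any other class. A listed start of a protein-coding gene lay inside 58.5% of shared untreated regions, 57.7% of shared RANKL regions and 49.8% of untreated-only regions (46.5% to 53.1%), but inside 33.6% of RANKL-only regions (30.8% to 36.5%). The midpoint lay between protein-coding genes, over 1 kb from any, for 31.0% of RANKL-only regions (28.2% to 33.9%). It did so for 16.4% of untreated-only regions (14.0% to 19%) and 13.7% and 13.8% of shared ones. Noncoding genes and pseudogenes were not counted, so some regions called between genes here overlap one, as at Rn18s-rs5 below. The interval of the RANKL-only class did not overlap that of any other class for either measure. The same was seen among broad regions. In the widest quartile of the RANKL list, 46.2% of RANKL-only regions lay between genes and 17.2% held a start, against 28.8% and 43.5% of shared regions. In the widest quartile of the untreated list, 23.0% of untreated-only and 26.5% of shared regions lay between genes and 45.5% and 49.7% held a start, with overlapping intervals.

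**Figure D1:**
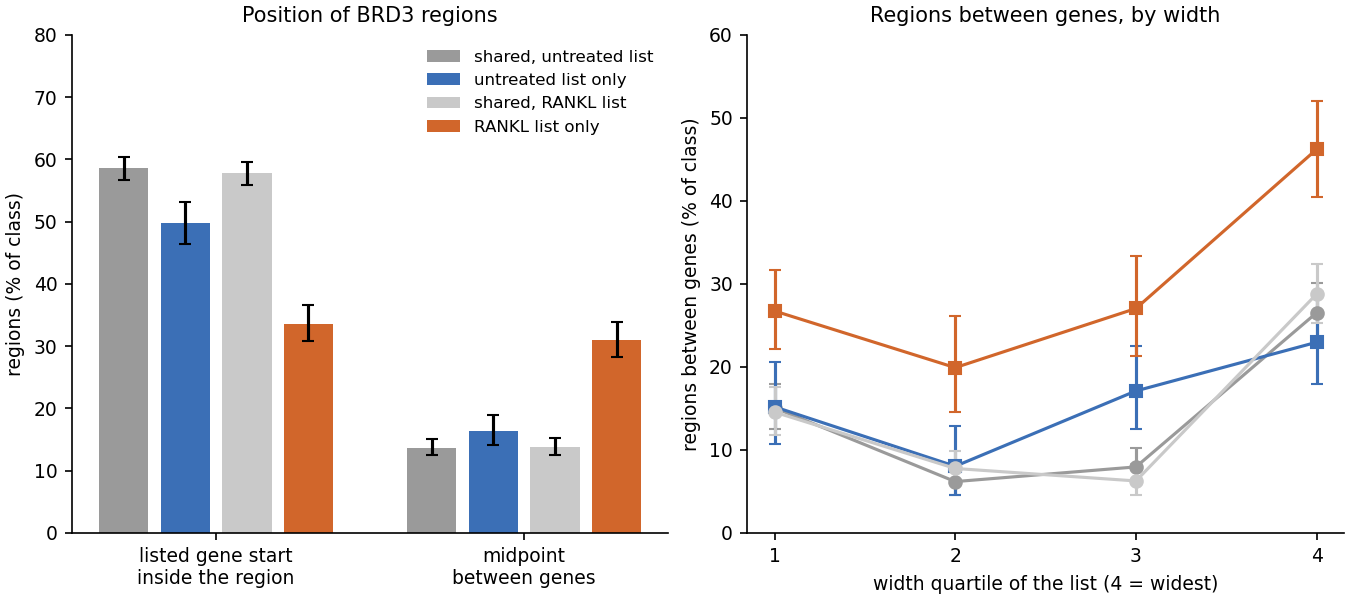
Left, the share of BRD3 regions of each class (percent, bars) that hold a listed gene start or have their midpoint between genes. Right, the share between genes by width quartile of the list. Only protein-coding genes were counted. Error bars are exact 95% intervals that cover counting error only. RANKL-only regions have the lowest share with a start (33.6%) and the highest share between genes (31.0%), and reach 46.2% between genes in the widest quartile.

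The widest RANKL-only regions were over or near the genes that follow, with distances taken from a region's midpoint. The first, of 7039 bp at chr16:24624461-24631499, lay inside Lpp, the gene of a focal adhesion protein. Next were 6054 bp over the ribosomal RNA pseudogene Rn18s-rs5 on chromosome 17, 5385 bp about 10.1 kb from Irf2bpl on chromosome 12, 4485 bp over Cd14 and 4053 bp at Spef1l, beside the metalloprotease gene Adam8. An untreated-only region of 3090 bp lay over Spef1l and Adam8 too (chr7:139977927-139981016), so this locus had regions on both sides. The region over Rn18s-rs5 was also called in all 4 BRD2 lists and in the BRD3 list with RANKL and I-BET. Among further wide ones, chosen after their values were seen, were 3986 bp near Pdcd1lg2, which encodes a checkpoint ligand, 3824 bp inside the cathepsin B gene Ctsb, 3659 bp at Clec5a, a myeloid receptor gene, 3453 bp at 8.87 kb from the scavenger receptor gene Msr1 and 3334 bp near Plau, the urokinase gene.

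The widest untreated-only regions were at Ncf4, a subunit gene of the phagocyte NADPH oxidase (4258 bp), in the adhesion gene Cadm1 (3922 bp), 16.6 kb from the adhesion gene Alcam (3768 bp), at S100a3 and S100a2, genes of calcium-binding proteins (3696 bp), and 25.6 kb from Lilr4b, a leukocyte receptor gene (3659 bp). The widest genes outside all lists were, on the untreated side, Gdf3, S100a2, Tgif1, Ly6e and Serinc3, and on the RANKL side Fth1, Clec4d, Edem1, Nek6 and Olfr460. The Gdf3, Tgif1, Fth1, Clec4d and Edem1 regions overlapped a region of the other list that did not reach the 1 kb window of the gene end. The Olfr460 region is the one at Clec5a.

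Among shared regions the width hardly moved on the whole, but the widest ones moved in opposite directions at starts and away from them. Of 2774 overlapping pairs, 2744 were one-to-one, and their median log2 ratio of RANKL to untreated width was 0.02 (quartiles -0.24 and 0.23), with 52.2% wider under RANKL (50.3% to 54.0%). Widths in the 2 lists correlated with a Spearman rho of 0.69 over the 2744 pairs, a description in which peaks share the caller and its settings. At least 2 times wider under RANKL were 100 pairs and at least 2 times narrower 121. Among pairs in the widest quartile (mean width of 1036 bp or more), 114 of 301 with a start in both regions were wider under RANKL (37.9%, 32.4% to 43.6%), against 200 of 355 with no start in either (56.3%, 51.0% to 61.6%). In the same quartile 16 pairs with a start were at least 2 times wider and 37 at least 2 times narrower, and without a start 32 and 19.

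Among one-to-one pairs the 5 largest gains of width lay in or near Mitf, Fth1, Fos, Clec4d and Reep3. A region inside Mitf, which encodes a transcription factor of the osteoclast and pigment cell lineages, went from 995 bp to 6461 bp (chr6:97814513-97820973), and a RANKL-only region of 2867 bp lay further inside the gene. A region at Fth1, the ferritin heavy chain gene, went from 2493 bp to 7942 bp. A region beyond Fos, an AP-1 gene, went from 1300 bp to 5766 bp and lay 8966 bp from the gene under RANKL. On the other side of Fos lay a RANKL-only region of 4010 bp at 49490 bp and an untreated-only region of 746 bp at 35995 bp. Clec4d, a myeloid lectin receptor gene, went from 2298 bp to 5733 bp, and a region 78.1 kb from Reep3 from 2572 bp to 5653 bp. Near Rbpj, which encodes the DNA-binding factor of Notch signalling, untreated regions of 2196 bp, 1050 bp and 1173 bp lay under 1 RANKL region of 10554 bp, the widest of that list.

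Of the 5 largest losses of width, 4 were in regions that held a listed start of a protein-coding gene in untreated cells. Starts of noncoding genes, such as Neat1 at the remaining region, were not counted. The region at Tnrc18, a gene of a nuclear protein, went from 6911 bp to 1713 bp, Zc3h4, which encodes a factor that ends unproductive transcription, from 4495 bp to 1079 bp, and the long noncoding RNA Neat1 from 6435 bp to 3218 bp. Tgif1, a homeobox repressor gene, went from 3673 bp to 586 bp and Spred1, an inhibitor of Ras signalling, from 5493 bp to 2421 bp. The widest untreated region of all was 10614 bp over the start of Zeb2, a repressor gene of the macrophage identity list below. Under RANKL this region was split into 4482 bp and 1673 bp. Other wide shared regions in the untreated list were at Pid1 (7997 bp, 6924 bp under RANKL) and Apobec1 (7078 bp), and in the RANKL list near Rgs13 (7457 bp) and in Rgl1 (6830 bp). In all, 8 untreated regions were split over 2 or more RANKL regions and 7 RANKL regions joined 2 or more untreated ones.

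**Figure D2:**
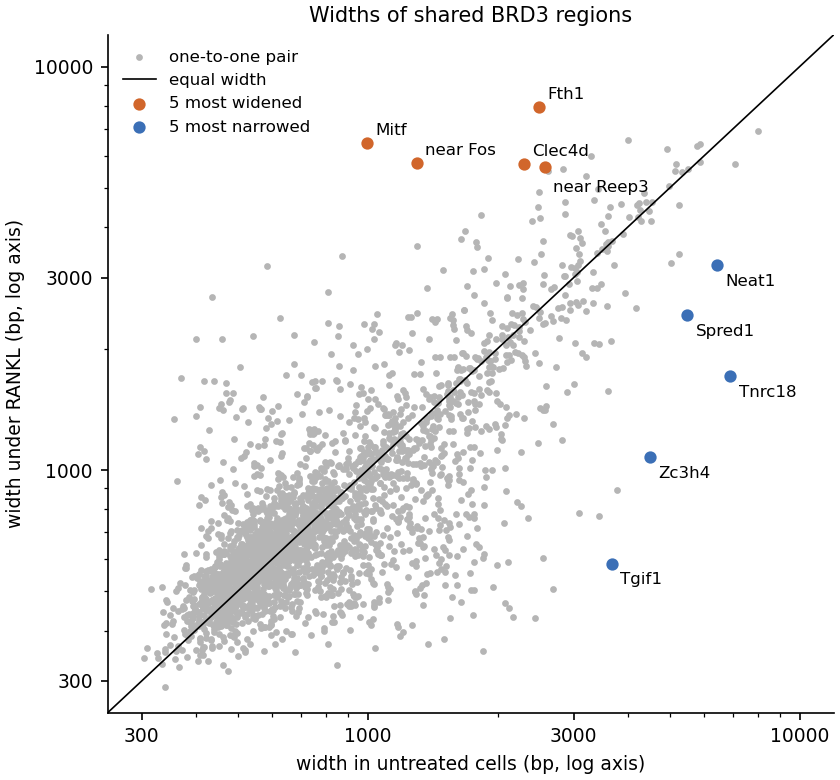
Width in the untreated list (x axis, bp, log scale) against width in the RANKL list (y axis, bp, log scale) for the 2744 one-to-one shared pairs, with the line of equal width. Named points are the 5 pairs with the largest gain (orange) and the 5 with the largest loss in bp (blue), from Mitf (995 bp to 6461 bp) to Tgif1 (3673 bp to 586 bp).

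A gene counted as called in a list when a region reached to within 1 kb of one of its ends. Of 21887 protein-coding genes, 3065 (14.0%) were called in the untreated list, 3004 (13.7%) in the RANKL list and 2403 (11.0%) in both, which is 78.4% of the untreated and 80% of the RANKL calls. The untreated list alone called 662 genes (3.02%) and the RANKL list alone 601 (2.75%). Such a call can still belong to a shared region whose other member stopped short of the window, which was the case for 20 of the 662 and 15 of the 601. In 9 lists of genes of the macrophage and RANKL response, with 306 members in all, 49 were called in both lists, 23 in the untreated list only and 25 in the RANKL list only. The 3.02% and 2.75% are over all genes, expressed or not, and each list is read beside them as a description.

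**Figure D3:**
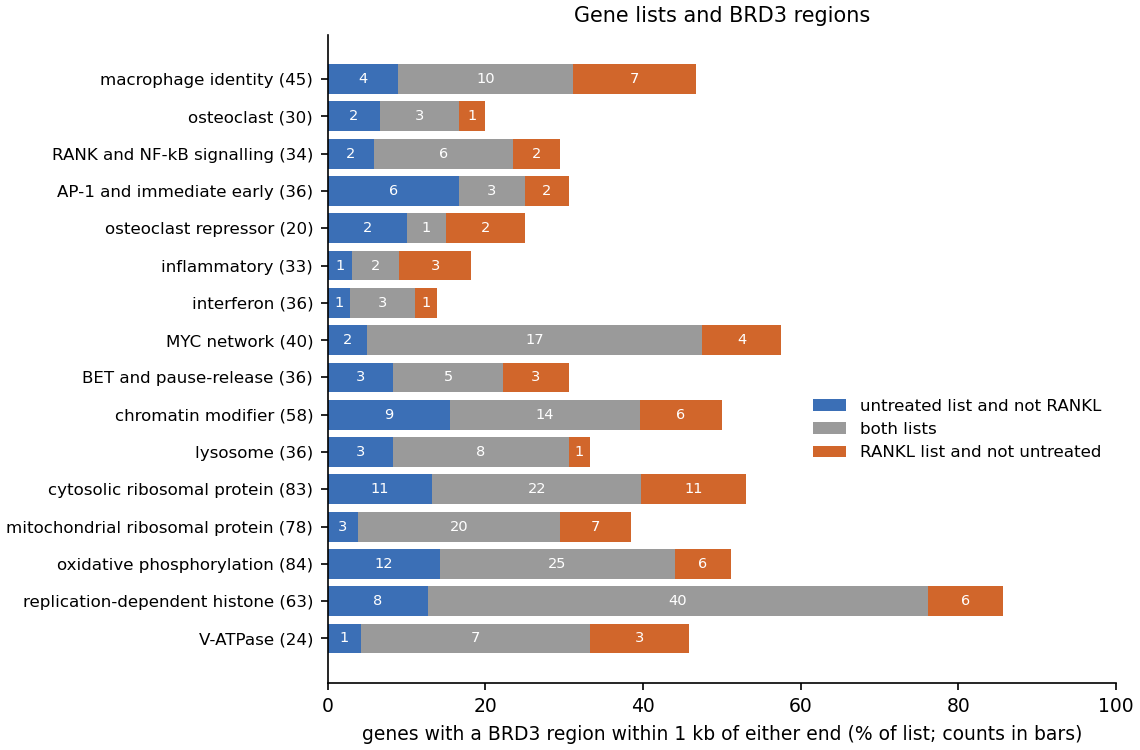
Share of each gene list (x axis, percent of members, number of members in brackets) with a BRD3 region within 1 kb of either gene end, split into genes called in the untreated list only (blue), both (grey) and the RANKL list only (orange), with counts in the bars. The macrophage identity list has 7 RANKL-only and 4 untreated-only genes of 45, and the AP-1 and immediate early list 2 and 6 of 36.

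More macrophage identity genes were called in the RANKL list, which also covered more length around them. Of 45 genes, 14 were called in untreated cells, 17 under RANKL and 10 in both. Within 50 kb of the genes, 19 of the 32 with any region had more covered length under RANKL (50.9% of all genes with any did), while the others had less. With each region counted once over the windows, 50 untreated regions covered 94.6 kb and 66 RANKL regions 135 kb. Without the windows of Cd14, Lyz1, Lyz2 and Rbpj, chosen after their values were seen, the lengths were 70.5 kb and 83.9 kb. Called in the RANKL list only were Cd14, the co-receptor for lipopolysaccharide (4485 bp), Lyz2, lysozyme M (3935 bp), Tlr2, a receptor for bacterial lipoproteins (2310 bp), Cebpb, a C/EBP factor (1453 bp), Cyba, an NADPH oxidase subunit (910 bp), the actin bundler Lcp1 (518 bp) and Plek, pleckstrin (466 bp). Called in the untreated list only were Ncf4 (4258 bp), Mpeg1, the pore-forming perforin-2 (1774 bp), the lysosomal membrane protein Laptm5 (1273 bp) and the protease Ctss (1115 bp). With regions inside the gene counted too, the list again had 7 and 4 such genes, beside 3.39% and 3.48% of all genes. The counts were 3 and 3 with the top 50% of each list by score.

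Several of these loci differed in more than 1 region, and the loci whose regions are all given were chosen after their values were seen. Around Tlr2 the untreated list held nothing within 50 kb and the RANKL list 2310 bp over the gene and 2003 bp at 1444 bp from it. Around Cd14 the list went from 4 regions (8613 bp) to 6 (17675 bp), with a second RANKL-only region of 1621 bp. At Csf1r, the M-CSF receptor gene, the shared region over the gene end was 3095 bp and 3294 bp, and a RANKL-only region of 3266 bp lay 1781 bp from the gene where the untreated list had a region of 1348 bp at 5371 bp. At Spi1, which encodes PU.1, the shared region went from 4010 bp to 6587 bp while an untreated-only region of 2075 bp lay inside the gene. The region at Cd68, a lysosomal glycoprotein gene, went from 1303 bp to 3593 bp. Its untreated member lay outside Cd68 and held a listed start of another gene, and its RANKL member also overlapped Mpdu1. Msr1 went from 3109 bp to 3766 bp. The fractalkine receptor gene Cx3cr1 went from 2287 bp to 2906 bp, and Cebpa, a myeloid C/EBP gene, from 2116 bp to 590 bp. Lyz1, the neighbour of Lyz2, had 4474 bp in the untreated list, split under RANKL into 3034 bp and 2827 bp.

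Osteoclast genes were called at shares near those of all genes. More length was covered within 50 kb of them under RANKL, as given above, with 995 bp and 9328 bp around Mitf. Of 30, 5 were called in untreated cells (16.7%, beside 14.0% of all genes), 4 under RANKL (13.3%, beside 13.7%) and 3 in both. The last were Tyrobp (1533 bp and 1573 bp) and Fcer1g (444 bp and 577 bp), adaptors of co-stimulatory receptors, and Atp6v1c1, a V-ATPase subunit (483 bp and 595 bp). Ctsk, the bone-resorbing protease cathepsin K, was called in the RANKL list only, with regions of 1799 bp at 557 bp from the gene, 701 bp inside it and 1811 bp at 8236 bp. Ctss, the next gene on the chromosome, has its 1115 bp region in the untreated list only, and a region between both genes was shared (1160 bp and 1310 bp). Trem2, a receptor that signals through Tyrobp (1054 bp), and Car2, carbonic anhydrase 2 (588 bp), were called in the untreated list only. Nfatc1, Tnfrsf11a, which encodes RANK, Dcstamp, Oscar and Calcr had no region of either list within 50 kb. Acp5, the TRAP gene, had a shared region 8201 bp away in the untreated list.

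In the RANK and NF-kB list most calls were shared, and the unshared ones were split evenly with the 1 kb window at either gene end. Of 34 genes, 8 were called in each list and 6 in both, the adaptor gene Traf3 (812 bp and 763 bp), Tab1 (1116 bp and 1293 bp), Tab3 (400 bp and 358 bp), the kinase gene Map3k14 (544 bp and 605 bp), Rela, an NF-kB subunit (1525 bp and 956 bp), and Nfkbia (1824 bp and 1102 bp). The untreated list only had Tab2 (641 bp) and Map3k7 (609 bp), which encode a kinase complex below TRAF6. The RANKL list only had Bcl3, a nuclear partner of NF-kB p50 and p52 (1347 bp), and Nfkb1, the gene of p50 (362 bp). Both untreated-only genes had a BRD2 region under RANKL, as had both RANKL-only genes. Of the 6 genes in both lists, Tab1 alone had one. Over all genes, 22.8% of untreated-only genes, 24% of RANKL-only genes and 18.8% of genes in both lists had one. Nfkb1 also had a BRD2 region without treatment and with I-BET, and Tab1 had one without treatment. By listed starts alone the split of BRD3 calls was uneven, with 3 genes in the untreated list only and 1 in the RANKL list only.

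More immediate early and AP-1 genes were called in untreated cells. Of 36 genes, 9 were called in untreated cells, 5 under RANKL and 3 in both. The untreated list only had Klf10 (2681 bp), the MAP kinase phosphatase genes Dusp6 (1969 bp) and Dusp4 (1482 bp), the AP-1 gene Jun (1878 bp, 371 bp from the gene), the nuclear receptor gene Nr4a2 (1602 bp) and the Krüppel-like factor gene Klf4 (663 bp). The Klf10 region was shared, and its RANKL member of 507 bp lay inside the gene, over 1 kb from its end. Around Jun, Dusp4, Dusp6 and Nr4a2 the RANKL list had no region within 50 kb. The RANKL list only had the AP-1 genes Fosl2 (2095 bp) and Jund (1840 bp), and Fosb (678 bp and 609 bp), Junb (2356 bp and 761 bp) and Zfp36l2, an mRNA decay factor gene (2771 bp and 2121 bp), were in both. With a window at listed starts alone, 5 genes were called in the untreated list only and 1 in the RANKL list only, beside 3.17% and 2.8% of 17492 genes with a listed start.

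Repressors of osteoclast formation, inflammatory and interferon genes were called at shares near those of all genes (14.0% and 13.7%). Of 20 repressors, 3 were called in each list and Cebpa in both; Zbtb7a, a zinc finger repressor (2128 bp), and Irf2, an interferon regulatory factor (1780 bp), were in the untreated list only, and Lilrb4a, an inhibitory receptor (2121 bp), and Ifnar1, an interferon receptor chain (622 bp), in the RANKL list only. Of 33 inflammatory genes, 3 were called in untreated cells (9.09%) and 5 under RANKL (15.2%). Ccl3 and Ccl4, neighbouring chemokine genes, share 1 region that went from 1408 bp to 2362 bp. Tnf (2009 bp), Tlr7, an RNA sensor (1412 bp), and Myd88, an adaptor of Toll-like receptors (958 bp), were in the RANKL list only. The Myd88 region lay outside the gene and held a listed start of another gene. The inflammasome gene Nlrp3 (2126 bp) alone was in the untreated list only. This order of the sides did not hold under other settings, with 3 RANKL-only and 3 untreated-only genes for a 5 kb window and 0 and 3 for the top 50% by score. Of 36 interferon genes, 4 were called in each list and 3 in both, Irf3 (479 bp and 698 bp), Jak2 (481 bp and 647 bp) and Socs1 (491 bp and 602 bp). The kinase gene Tyk2 (390 bp) was in the RANKL list only and Ifitm2, an antiviral membrane protein gene (522 bp), in the untreated list only.

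Genes of the MYC network were the most often shared among the 9 lists. Of 40, 19 were called in untreated cells, 21 under RANKL and 17 in both. The shared ones with the widest RANKL regions were Ran (1616 bp and 1521 bp), the nucleolar genes Nop56 (980 bp and 1107 bp), Ncl (988 bp and 1016 bp) and Npm1 (1110 bp and 979 bp), the spermidine synthase gene Srm (1245 bp and 1096 bp) and the ribosome assembly gene Ppan (761 bp and 960 bp). Eif4e, the cap-binding factor (1070 bp), Mybbp1a, a nucleolar protein (665 bp), Phb, prohibitin (532 bp), and Cad, an enzyme of pyrimidine synthesis (510 bp), were in the RANKL list only. Nop58 (1067 bp) and Rrp9 (707 bp), of the small nucleolar ribonucleoproteins, were in the untreated list only. Myc itself had no region of either list within 50 kb.

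The BET and pause-release genes, whose products work with BRD3, had 8 calls of 36 in each list and 5 in both. Brd2 had 3902 bp and 3851 bp, Hexim1 1697 bp and 2223 bp, Mepce, which caps the 7SK RNA that holds P-TEFb inactive, 2043 bp and 2114 bp, Ccnt2, a P-TEFb cyclin gene, 866 bp and 779 bp, and Mllt3, a super elongation complex gene, 475 bp and 563 bp. The unshared ones named here were narrow. The untreated list only had the elongation genes Ell (816 bp), Mllt1 (619 bp) and Rtf1 (454 bp), and the RANKL list only held Supt4a (484 bp), a subunit of the pausing factor DSIF, and Nelfe (392 bp), a subunit of the pausing factor NELF.

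Housekeeping lists had many calls in both treatments, with further members in 1 list only. Of 83 cytosolic ribosomal protein genes, 33 were called in each list, 22 in both and 11 on each side; the widest were Rpl4 (1572 bp), Rps25 (1188 bp) and Rpsa (1185 bp) in the untreated list only and Rps18 (1092 bp), Rpl7a (983 bp) and Rpl3 (883 bp) in the RANKL list only. Of 78 mitochondrial ribosomal protein genes, 20 were in both, 3 in the untreated list only (Mrpl23, 746 bp; Mrps35, 575 bp; Mrpl3, 453 bp) and 7 in the RANKL list only, the widest Mrps6 (720 bp), Mrps27 (701 bp) and Mrpl54 (683 bp). Oxidative phosphorylation genes went the other way, with 25 of 84 in both, 12 in the untreated list only, such as Uqcrh (1264 bp), Ndufa7 (741 bp) and Ndufv2 (687 bp), and 6 in the RANKL list only, such as Ndufs8 (2170 bp), Atp5l (552 bp) and Cycs (520 bp).

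Among chromatin modifiers, 14 of 58 were in both lists, 9 in the untreated list only and 6 in the RANKL list only. The widest of the untreated list only were the demethylase gene Kdm2a (1855 bp, a shared region) and the methyltransferase genes Kmt2c (1677 bp) and Setd1b (1339 bp). Those of the RANKL list only were the deacetylase gene Hdac1 (701 bp), the acetyltransferase gene Kat7 (670 bp) and the sirtuin gene Sirt6 (622 bp). Replication-dependent histone genes were the most often called list, with 48 of 63 in untreated cells, 46 under RANKL and 40 in both. Less length was covered around them under RANKL. With each region counted once over their 5 merged windows of 50 kb on either side, 29 untreated regions covered 58.9 kb and 27 RANKL regions 49.8 kb. H2bc13, H2ac13 and H3c10 share a region of 3034 bp in the untreated list only, and H4c1, H3c1 and H1f1 one of 2662 bp in the RANKL list only.

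Of 24 V-ATPase genes, whose pump acidifies lysosomes and the osteoclast's resorption space, 7 were in both lists. Atp6v0a1 (1185 bp), Atp6v1f (628 bp) and Atp6v1a (552 bp) were in the RANKL list only and Atp6v1g2 (1271 bp) in the untreated list only. Of 36 lysosome genes, 8 were in both, with Hexa (740 bp), Npc1 (662 bp) and Ctsb (546 bp) in the untreated list only and Fuca1 (690 bp) in the RANKL list only. Ctsb is thus on the untreated side at its end and has the RANKL-only region of 3824 bp inside the gene.

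NRF1 letters, shown above for Hexim1 and Ran, were most frequent in promoters with a BRD3 region in both lists. Over 21263 listed starts of 17492 genes, the 300 bases from 250 before to 50 after the start were searched on both strands, any overlap allowed, for 10 motifs. GCGCATGC was found in 20.9% of 2141 promoters overlapped in both lists (19.2% to 22.7%), 5.84% of 668 overlapped in the untreated list only (4.18% to 7.90%), 11.2% of 527 in the RANKL list only (8.63% to 14.2%), and 3.52% of all. With 1 listed start per gene the shares were 21.2%, 5.62%, 11.9% and 3.61%. The intervals of the RANKL-only and untreated-only promoters did not overlap. The classes differed in base composition, with a median GC content of 63.7% in both lists, 65.0% in the untreated list only, 61.3% in the RANKL list only and 56.3% over all. In 3 groups of promoters by GC content, from low to high, the share was 21.3%, 25% and 18.5% in both lists, 3.92%, 8.46% and 4.81% in the untreated list only and 16.4%, 10.8% and 10.2% in the RANKL list only. The order of the classes was thus the same in each, while the intervals of the unshared classes overlapped within each group.

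For the other motifs the 3 classes lay closer together in percentage points. The ETS letters CCGGAAGT were found in 9.39%, 6.74% and 11.2% of promoters in both lists, untreated only and RANKL only, and in 5.15% of all. The SP and KLF letters GGGCGGGG were found in 36.6%, 41.9% and 36.2%, against 23.6% of all, and the E-box CACGTG, which MYC and its partners bind, in 11.6%, 10.6% and 11%, against 7.84%. The CRE letters TGACGTCA were found in 3.50%, 2.25% and 3.23%, against 2.23%. The C/EBP letters TTGCGCAA or TTGCACAA were found in 1.26%, 2.25% and 1.14%, against 1.2%. TATAAA was rarer in called promoters, at 5.93%, 5.39% and 7.02% against 12.6% of all, as were the AP-1 letters TGACTCA (2.29%, 1.35% and 2.09% against 4.66%). The PU.1 letters GAGGAAGT were found in 2.43%, 2.1% and 1.33%, against 3.13%. The NF-kB letters GGGACTTTC or GGGAATTTC were in 2 promoters of both lists, 7 of the untreated list only and 0 of 527 of the RANKL list only (exact upper limit 0.698%), against 0.588% of all. The share was 0.0934% in both lists (0.0113% to 0.337%) and 1.05% in the untreated list only (0.422% to 2.15%), a wider ratio than for NRF1 that rests on these 2 and 7 promoters. Some of the 7 are starts of the same gene. With 1 listed start per gene, 2 of 1805 promoters in both lists held the letters (0.0134% to 0.400%). In the untreated list only 5 of 534 did (0.305% to 2.17%), and these intervals overlapped.

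**Figure D4:**
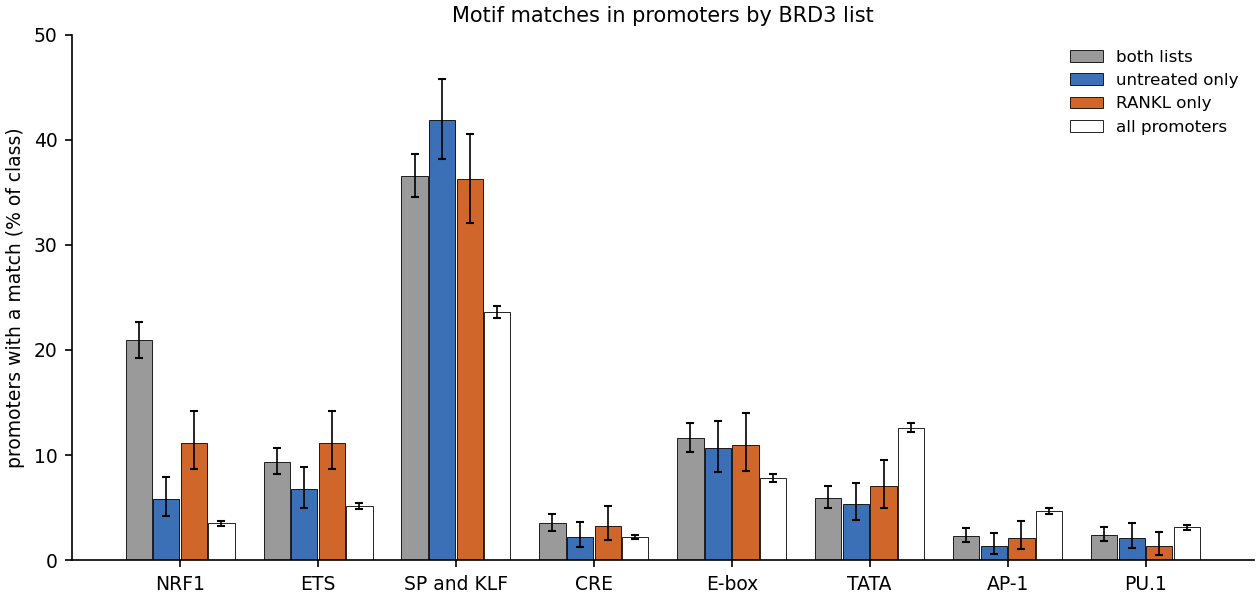
Share of promoters (y axis, percent) that hold each of 8 motifs on either strand, without C/EBP and NF-kB, for promoters overlapped by BRD3 regions in both lists (grey), the untreated list only (blue) and the RANKL list only (orange) and for all 21263 promoters (white), with exact 95% intervals. NRF1 letters are in 20.9%, 5.84% and 11.2% of the 3 classes and 3.52% of all.

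The lists of the other 6 libraries, which the pairing did not use, met the 3 classes in different shares. Shared regions were overlapped in 65.0% of cases by the BRD3 list with I-BET and in 77.1% by the BRD3 list with RANKL and I-BET. Of untreated-only regions the same lists met 17.0% (14.6% to 19.6%) and 24.6% (21.8% to 27.6%), and of RANKL-only regions 20.2% (17.8% to 22.7%) and 31.8% (29.0% to 34.6%). The share differed with position: of RANKL-only regions with a start inside, 50.1% (44.9% to 55.4%) were met by the list with RANKL and I-BET and of those without one 22.4% (19.4% to 25.7%), while for untreated-only regions the shares were 29.0% (24.8% to 33.4%) and 20.3% (16.7% to 24.3%). At genes, 261 of the 601 RANKL-only genes had a region in the list with RANKL and I-BET (43.4%, 39.4% to 47.5%). Of the 7 macrophage identity genes called under RANKL only, Cebpb and Lcp1 did and Cd14, Lyz2, Tlr2, Cyba and Plek did not, and none had one in the BRD3 list with I-BET, where 33.1% of all RANKL-only genes did.

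BRD2 is a second BET protein, and its lists are shorter. They held 578 regions in untreated cells, 1716 with RANKL and 1067 with I-BET, so they differ in length among themselves too. The BRD2 list of RANKL-treated cells overlapped 20% of shared, 20.6% of untreated-only and 20.7% of RANKL-only regions, and the BRD2 list with I-BET 13.0%, 13.4% and 11.6%. The BRD2 list of untreated cells overlapped 7.85% of shared and 10.6% of untreated-only regions (8.71% to 12.8%), but 4.56% of RANKL-only regions (3.39% to 5.99%). In the narrowest width quartile the order of the sides was not seen, with 1.34% of untreated-only and 1.44% of RANKL-only regions. Without a start inside, the shares of untreated-only and RANKL-only regions were 8.61% (6.19% to 11.6%) and 2.24% (1.29% to 3.62%), and with one 12.7% (9.76% to 16.1%) and 9.14% (6.38% to 12.6%). Cd14, Lyz2, Tlr2 and Cyba had a BRD2 region with RANKL but none without treatment, and Cebpb, Lcp1 and Plek had neither. With I-BET and no RANKL, Cd14, Tlr2 and Plek had a BRD2 region. Of all 601 RANKL-only genes, 24% had a BRD2 region with RANKL, 7.99% one without treatment and 16.1% one with I-BET. The 4 untreated-only macrophage identity genes, Ctss, Laptm5, Mpeg1 and Ncf4, all had a BRD2 region with I-BET. Ctss also had one with RANKL, and none of the 4 had one without treatment. Of all 662 untreated-only genes, 22.8% had a BRD2 region with RANKL, 11.6% one without treatment and 13.6% one with I-BET. Fosl2, Tnf and Tlr7 also had both a RANKL-only BRD3 region and a BRD2 region under RANKL, and Ctsk, Jund and Myd88 had no BRD2 region under RANKL.

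**Figure D5:**
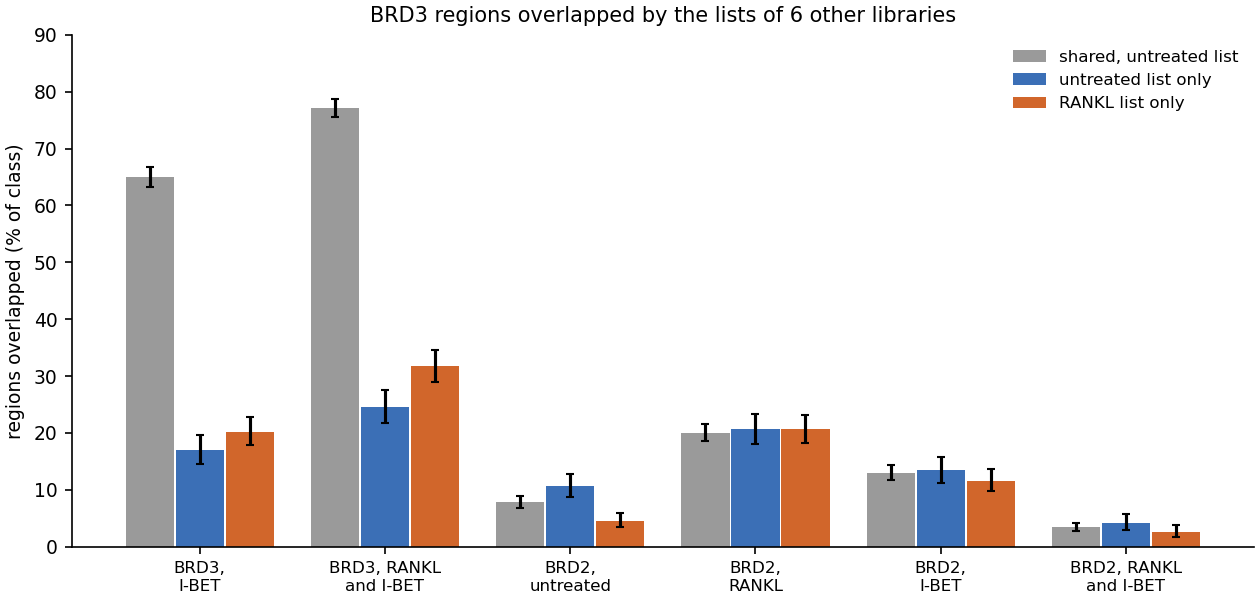
Share of BRD3 regions (y axis, percent) overlapped by at least 1 bp by the lists of 6 other libraries (x axis), for shared regions, untreated-only regions and RANKL-only regions, with exact 95% intervals. The BRD3 lists with I-BET meet 65.0% and 77.1% of shared regions and 17.0% to 31.8% of the others, and the BRD2 list of untreated cells meets 4.56% of RANKL-only regions.

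Unshared regions were spread over all chromosomes, unevenly. Chromosome 2 had the highest share, with 93 of 261 untreated regions (35.6%, 29.8% to 41.8%) and 120 of 288 RANKL regions (41.7%, 35.9% to 47.6%) in 1 list only, leaving out chromosome Y with 2 and 3 regions. Chromosome 7 had among the lowest, with 17.3% (13.0% to 22.2%) and 21.6% (17.1% to 26.8%). Spi1, Zeb2 and Nr4a2 lie on chromosome 2, and without that chromosome 76.3% of untreated and 73.1% of RANKL regions were shared.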

How the data were processed

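BRD3 was immunoprecipitated from RAW264.7 cells, 1 library per treatment, and the processed data are the region lists that the authors deposited. Per the submitters' processing notes, the tools were MACS2 2.1.1.20160309, Bowtie2 2.3.4.1 and FastQC and the build mm10/GRCm38, with no settings named. Each region joins peaks of 3 peak sets numbered 3, 5 and 7, as its deposited name shows, and the sources used here do not give their meaning. The deposited lists hold a score per region, the authors' own value, which entered only the ranked alternatives. Over neighbouring regions it correlated with a Spearman rho of 0.44 and 0.61, with width 0.009 and 0.008, and over shared pairs 0.30. No read counts or depths are in the lists, so depth is unknown. The 4 input libraries have no list here and entered no comparison.

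Overlaps, widths and distances were computed with Python 3.11.15, pandas 2.3.3, numpy 2.4.6 and scipy 1.17.1 and plotted with matplotlib 3.10.9, after a check on simulated intervals. Genes, listed starts and promoter sequences came from RefSeq tables of GRCm38.p6, which give no exons. Of 1460 entries in 23 gene lists, 2 had no match. Alternatives were other overlap minima, score ranks, widths and gene windows. Members and lists were chosen with earlier results of these data known. Named were all members of 9 lists called on 1 side, except 1 that is not reported here, up to 6 called in both, the 5 widest regions of each class and 5 largest width changes each way, up to 3 members per side of the other lists and the 5 widest genes per side in none. Genes around which all regions within 50 kb are given, wide regions beyond the first 5 and the printed promoters were chosen after their values were seen. Motifs were exact letters.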

Additional observations from a re-analysis of the deposited data

How the results depend on the processing

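No paired analysis was possible because each antibody and treatment is 1 library. Depth, enrichment and the caller's threshold were not tested. With at least 50% of each region overlapped, 67.9% of untreated and 64.8% of RANKL regions were shared, with the top 50% by score 50.1% and 47.8% (and 793 genes in both), and with regions of at least 500 bp 69.0% and 66.1%. With lists of equal length by score 72.9% of untreated regions were shared. A 5 kb gene window left 26.6% of RANKL-only regions between genes. By width quartile, from narrow to wide, 26.7%, 19.9%, 27% and 46.2% of RANKL-only regions lay between genes, and 8.02% and 23.0% of untreated-only regions in quartiles 2 and 4. The BRD2 list of untreated cells met 1.34%, 13.4% and 14.8% of untreated-only regions in quartiles 1, 2 and 4 and 1.44% and 10.4% of RANKL-only regions in quartiles 1 and 3. The BRD2 list of RANKL-treated cells met 3.57%, 25.6% and 30.7% of untreated-only regions in quartiles 1, 3 and 4 and 7.18%, 17.9% and 36.3% of RANKL-only regions in quartiles 1, 2 and 4. Where at least 50% of the region had to be covered it met 17.2% of untreated-only regions. Of pairs with no start in either region 55.1% were wider under RANKL. The split of pairs by start, the width quartiles for position, the 50 kb length and the count without chromosome 2 were chosen after seeing the data. In the top 50% by score the macrophage identity list had 3 RANKL-only genes in place of 7, and with a window at listed starts 2 untreated-only genes in place of 4. The order of the sides turned in some lists: with the top 50% by score the inflammatory list had 3 untreated-only and 0 RANKL-only genes (1 and 3 with all regions) and the MYC list 5 and 4 (2 and 4).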

Other observations

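Further gene lists held calls in 1 list only in small numbers. Of 67 splicing factor and hnRNP genes, 23 were called in both lists, 9 in the untreated list only and 4 in the RANKL list only. The widest on the untreated side were Hnrnpdl (1995 bp, a shared region), Hnrnpa2b1 (1993 bp) and Hnrnpk (1390 bp), genes of RNA-binding proteins, and on the RANKL side the kinase gene Prpf4b (1590 bp), Sf3b4 (876 bp) and Prpf6 (487 bp). Of 49 heat shock and chaperonin genes, 14 were in both, 3 in the untreated list only and 5 in the RANKL list only, among the latter the mitochondrial chaperone gene Hspa9 (1430 bp) and the chaperonin genes Cct8 (1057 bp) and Cct7 (938 bp), with Cct5 (1027 bp) on the untreated side. Of 53 helicase genes, 10 were in both, with Dhx9 (2472 bp), Ddx54 (847 bp) and Ddx39a (591 bp) in the RANKL list only and Dhx15 (703 bp) and Ddx11 (478 bp) in the untreated list only.

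Of 70 translation factor genes, 22 were called in both lists, 4 in the untreated list only, such as Eif3d (1688 bp) and Eif5 (1166 bp), and 2 in the RANKL list only, Eif4e (1070 bp) and Eef1d (805 bp). Of 48 proteasome genes, 10 were in both, with Psma1 (396 bp) in the untreated list only and Psmg4 (375 bp) in the RANKL list only. Of 397 Zfp genes, 66 were called in each list, 54 in both and 12 on each side, the widest Zfp341 (1278 bp) on the untreated side and Zfp141 (734 bp) on the RANKL side. These counts stand beside 3.02% and 2.75% of all genes.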
